A study of Mus musculus with 4 samples.

Results

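Platelet-derived growth factor (PDGF) signalling links the lung's epithelium and vessels to its connective tissue, and 10 genes of that system and of lung fibroblasts were followed here. They are the ligands Pdgfa and Pdgfb, the receptors Pdgfra and Pdgfrb, the fibroblast transcription factor Tcf21, the lipid-handling genes Plin2 and Lpl, and the matrix genes Postn, Dcn and Lum. A probe set, the group of oligonucleotides that reads a transcript on an Affymetrix array, was taken when its annotated symbol was exactly one of these names. This gave 15 of 22690 probe sets for 10 of 12393 genes with a symbol of their own, and 5 of the 10 genes had more than 1 probe set. Whole lungs of mouse embryos were measured on 4 arrays, 2 labelled wild type and 2 labelled sftpc-nmyc. Each title dates the lung to embryonic day 18. The sftpc-nmyc lungs carried mouse Nmyc1 (Mycn in current nomenclature, a growth-promoting transcription factor) fused to EGFP behind a promoter and enhancer fragment of the human SFTPC gene, which is active in lung epithelium and not in fibroblasts. Each of the 4 transgenic embryos of the study came from pronuclear injection into F2 eggs of C57BL/6J and DBA/2J background, so each is a founder of its own, and which of them the 2 arrays show is not given. The strain of the wild-type embryos is not given, and the design text places the transgenic embryos slightly later within that day. The samples are biological replicates per the design text.

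PDGFs are secreted as dimers and bind the tyrosine kinase receptors PDGFR-alpha and PDGFR-beta on mesenchymal cells. In the developing lung, PDGF-A made by epithelium acts on Pdgfra-positive fibroblasts, including the precursors of alveolar myofibroblasts that lay down elastin, and PDGF-B made by endothelium recruits Pdgfrb-positive pericytes to small vessels. Lipofibroblasts are lipid-storing fibroblasts beside the alveolar epithelium, known by Tcf21, Plin2 and Lpl, while Postn, Dcn and Lum encode proteins of the extracellular matrix.

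Of the 10 genes, 8 were lower in Sftpc-Nmyc lungs, none was higher, and Lpl and Lum did not pass the threshold (limma, adjusted p under 0.05 over all genes tested). All 10 genes and all 15 probe sets were bright enough to be tested. Over all 8675 genes tested, 15.7% were lower and 14.7% were higher by the same rule. The median log2 fold change of the 10 genes, transgenic minus wild type, was -0.96, beside -0.02 over all genes tested. By probe set, 12 of 15 were lower and none higher, beside 12.9% lower and 13.5% higher of 14266 probe sets tested. On the deposited signals, 14 of the 15 probe sets were lower on both transgenic arrays than on either wild-type array, which held for 34.9% of all probe sets tested, and Lum was the exception. The fall was at least 2-fold for 4 genes (Postn, Pdgfra, Pdgfrb and Dcn), as for 6.02% of all genes tested. Transgene activity itself was read by Mycn, whose normalized log2 level was 5.21 and 5.20 in wild type and 8.83 and 8.50 in transgenic lungs, a log2 fold change of 3.46 ± 0.19 (SE, limma adjusted p = 7.3e-05). Arrays correlated at 0.965 within wild type, 0.968 within Sftpc-Nmyc and 0.922 to 0.933 between the groups over probe sets that are not controls. In whole lung, fewer cells and less RNA per cell cannot be told apart, for fibroblasts or for the cells that make the ligands. The transgenic and wild-type arrays also differed in Xist, the RNA of the inactive X chromosome. Its deposited signals were 1707.8 and 1506.1 on the wild-type arrays and 59.3 and 63.9 on the transgenic arrays. Sex therefore cannot be told apart from genotype. The same holds for the slightly later stage of the transgenic embryos and for any difference in strain.

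**Figure D1:**
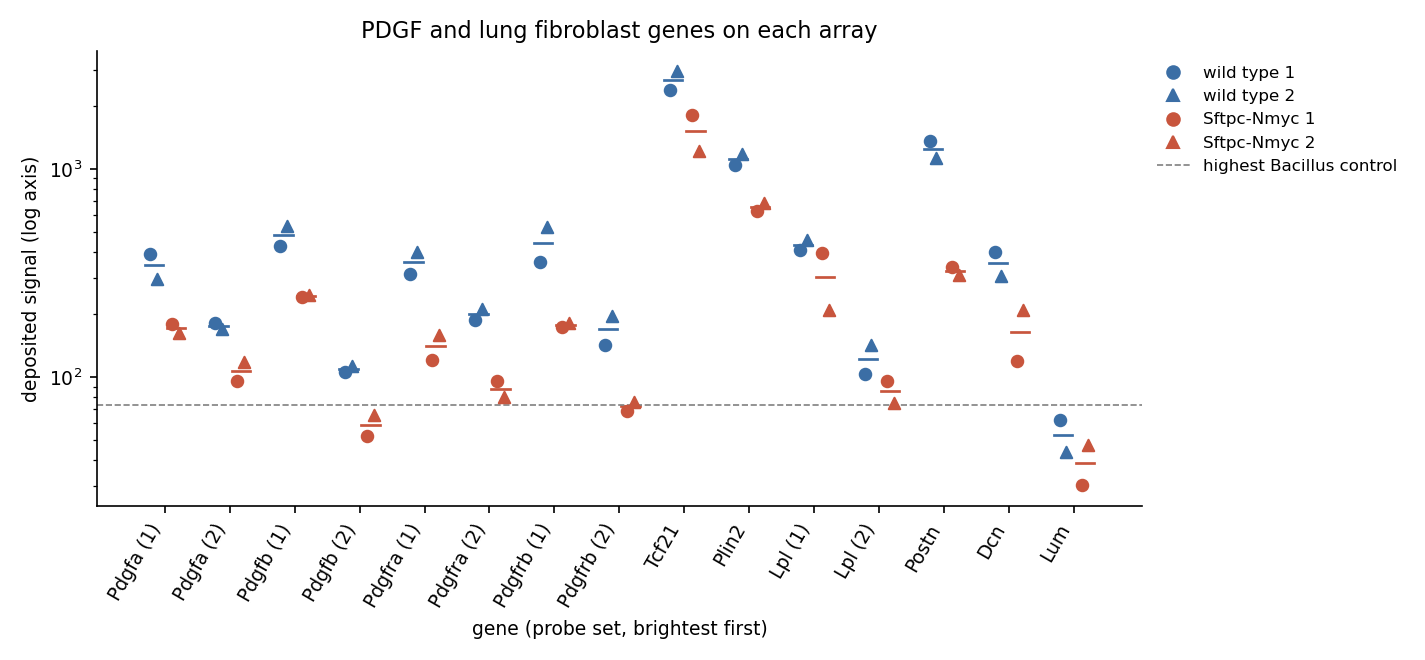
Deposited signal (log axis) of each of the 15 probe sets on each of the 4 arrays, with horizontal bars at group means and a dashed line at 73.4, the highest signal of 27 Bacillus control probe sets. The transgenic arrays lie below both wild-type arrays for 14 of the 15 probe sets, and the groups overlap for Lum, which lies under the dashed line on all 4 arrays.

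The promoter search left out the chromosome that carries Pdgfrb, so the promoter of that gene was not read. RefSeq promoter windows (assembly GRCm38.p6, 250 bases before to 50 after a transcript start) were matched for 5 of the 10 genes, in 7 windows. Those of the genes that fell are shown for Pdgfa, Pdgfra, Postn and Plin2, 1 window each, because the 4 genes fell in the same lungs while their proximal sequences differ in base composition and core motifs. Capitals mark 3 motifs searched on both strands: CACGTG (the E-box that MYC family proteins bind with MAX), GGGCGG (a GC box, written CCGCCC where it lies on the other strand) and TATAAA (the core promoter element bound by the general factor TFIID). The CACGTG motif is one form of the general E-box CANNTG, which is not marked.
Pdgfa, chr5:138994895-138995194, minus strand: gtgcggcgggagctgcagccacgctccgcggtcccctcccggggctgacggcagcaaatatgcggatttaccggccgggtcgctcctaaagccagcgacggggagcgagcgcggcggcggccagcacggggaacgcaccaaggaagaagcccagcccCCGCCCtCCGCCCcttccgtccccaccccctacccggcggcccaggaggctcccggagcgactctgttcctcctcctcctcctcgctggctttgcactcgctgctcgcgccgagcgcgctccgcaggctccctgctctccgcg
Pdgfra, chr5:75152001-75152300, plus strand: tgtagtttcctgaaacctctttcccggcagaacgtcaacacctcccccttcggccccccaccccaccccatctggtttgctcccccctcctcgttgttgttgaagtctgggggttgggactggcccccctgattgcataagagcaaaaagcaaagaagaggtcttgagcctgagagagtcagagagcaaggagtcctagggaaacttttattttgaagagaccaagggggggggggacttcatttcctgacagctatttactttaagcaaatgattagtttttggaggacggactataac
Postn, chr3:54360857-54361156, plus strand: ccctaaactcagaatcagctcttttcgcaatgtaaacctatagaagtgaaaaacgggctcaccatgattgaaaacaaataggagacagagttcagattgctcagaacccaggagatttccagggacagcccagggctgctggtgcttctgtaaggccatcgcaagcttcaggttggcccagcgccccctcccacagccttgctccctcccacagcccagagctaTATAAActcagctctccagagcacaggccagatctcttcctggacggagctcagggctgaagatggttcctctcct
Plin2, chr4:86670010-86670309, minus strand: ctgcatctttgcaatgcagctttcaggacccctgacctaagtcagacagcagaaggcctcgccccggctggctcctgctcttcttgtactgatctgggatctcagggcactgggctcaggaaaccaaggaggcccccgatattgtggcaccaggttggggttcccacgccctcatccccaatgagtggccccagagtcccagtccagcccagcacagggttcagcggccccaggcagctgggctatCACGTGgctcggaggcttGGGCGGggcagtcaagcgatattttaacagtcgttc
The Pdgfa window was 73.3% G and C with 37 CpG dinucleotides, beside medians of 52.7% and 7 over all 32851 windows of the table, and held 2 GC boxes. The Pdgfra window was 51% G and C and held none of the 3 motifs marked. The Postn window held TATAAA, whose first base lies at -26 from the transcript start, a motif found in 13.6% of all windows. The Plin2 window was the only one of the 7 with CACGTG, whose first base lies at -4, and the motif was found in 7.15% of all windows. It also held a GC box, a motif found in 35.7% of all windows. General E-boxes (CANNTG, in 72.3% of all windows) were found in the Plin2 and Pdgfra windows, 2 in each. The other windows, a second one each for Pdgfa and Postn and one for Tcf21, held none of these 4 motifs apart from 1 GC box in that of Pdgfa. These matches describe letters in a short window and show no binding.

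The ligands fell together. Pdgfa, the chain that epithelium makes for the fibroblasts around it, had deposited signals of 392.4 and 296.2 on the wild-type arrays and 180 and 163.8 on the transgenic arrays with probe set 1418711_at. Both transgenic values lay below the lower wild-type value, and Pdgfa changed by -0.98 ± 0.18 (log2, SE, n = 2 per group, limma adjusted p = 0.0061), to 50.8% of wild type. The other Pdgfa probe set, 1449187_at, went the same way, from 182.7 and 170.5 to 95.9 and 118.1. Its log2 fold change was -0.69 ± 0.18 (SE, limma adjusted p = 0.026 over all probe sets). Pdgfb, the chain made chiefly by endothelium and platelets, went from 427.8 and 532.1 to 243.2 and 247.1 with probe set 1450414_at. The groups were clear of each other and Pdgfb changed by -0.95 ± 0.16 (SE, limma adjusted p = 0.0039), to 51.7% of wild type. Its dimmer probe set 1450413_at went from 105.8 and 113.6 to 52.3 and 66, with the transgenic values under the highest Bacillus control, at -0.79 ± 0.20 (SE, limma adjusted p = 0.026 over all probe sets). The calls of these dimmer probe sets were less firm than those of the brighter ones. Each was lost with no filter on dim probe sets and with any array left out except transgenic replicate 2, at limma adjusted p from 0.0536 to 0.111 for that of Pdgfa and from 0.0692 to 0.107 for that of Pdgfb. The gene-level 95% intervals were -1.40 to -0.56 for Pdgfa and -1.32 to -0.59 for Pdgfb.

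Pdgfc went the other way. Pdgfc, whose product is secreted in a latent form and acts mainly through PDGFR-alpha, read 26.1 and 33.7 in wild type with probe set 1449351_s_at and rose to 95.9 and 81.7 in the transgenic lungs. The log2 fold change of Pdgfc was 1.50 ± 0.27 (SE, limma adjusted p = 0.0053), opposite in sign to Pdgfa and Pdgfb. Its second probe set, 1419123_a_at, read 24.8 and 21.4 in wild type and 49.6 and 46.3 in transgenic lungs, at 1.01 ± 0.31 (SE), and its call (limma adjusted p = 0.0447 over all probe sets) was lost with no filter on dim probe sets (0.0829). These are dim readings: only the 2 transgenic values of the first probe set exceeded the highest Bacillus control at 73.4. Pdgfc entered the test only through its transgenic level, since its mean log2 level of 5.06 in wild type lay under 5.40, the lowest mean kept by the filter, against 6.56 in transgenic lungs. With no filter the gene's limma adjusted p was 0.0222. Without transgenic replicate 1 the gene's value was 1.39 with a limma adjusted p of 0.0502. Pdgfd, the other latent ligand, was too dim to test, at 15.4 and 24.1 in wild type and 8.6 and 4.5 in transgenic lungs. Pdgfrl, a receptor-like gene, had no probe set with a symbol of its own here.

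Both receptors fell. Pdgfra, the receptor of lipofibroblasts and alveolar myofibroblast precursors, had signals of 312.1 and 401.3 in wild type and 120.8 and 160.2 in transgenic lungs with probe set 1421917_at. The lower wild-type value was well above the higher transgenic value, and Pdgfra changed by -1.30 ± 0.20 (SE, limma adjusted p = 0.0027), to 40.6% of wild type. Its second probe set, 1421916_at, went from 188.1 and 213.3 to 95.4 and 80.2, at -1.13 ± 0.18 (SE, limma adjusted p = 0.0045 over all probe sets). Pdgfrb, the receptor of pericytes and other perivascular cells, went from 359.2 and 526.8 to 174.4 and 182.9 with probe set 1436970_a_at. The wild-type arrays differed more from each other than the transgenic arrays did, and Pdgfrb changed by -1.27 ± 0.20 (SE, limma adjusted p = 0.0030), to 41.6% of wild type. The second probe set, 1417148_at, went from 143.4 and 196 to 68.8 and 76.2, at -1.13 ± 0.21 (SE, limma adjusted p = 0.0075 over all probe sets). The 95% intervals of the receptors, -1.75 to -0.85 for Pdgfra and -1.72 to -0.81 for Pdgfrb, overlapped each other and those of the ligands.

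The receptor genes stand beside related kinase genes on their chromosomes: Pdgfra is followed by Kit and then Kdr, and Pdgfrb by Csf1r, in the order of coding genes in RefSeq. Of 6 related receptor kinases measured, 5 were tested and all 5 were lower, with a median log2 fold change of -1.16. Kdr and Flt1 are counted again among the endothelial genes below, and Csf1r among the macrophage markers. Kit, the receptor of stem cell factor, went from 224.2 and 243 to 137.1 and 134.8, at -0.75 ± 0.16 (SE, limma adjusted p = 0.0095). Kdr, the main VEGF receptor of endothelium, went from 1058.4 and 1149.9 to 480.2 and 531.9, at -1.16 ± 0.13 (SE, limma adjusted p = 0.00088). Csf1r, the macrophage growth factor receptor, changed by -1.32 ± 0.14, Flt1, a VEGF receptor, by -1.31 ± 0.19 and Flt4, the receptor of lymphatic endothelium, by -0.77 ± 0.16 (SE). The call for Kit was lost without wild-type replicate 2 (limma adjusted p = 0.061) and that for Flt4 without wild-type replicate 1 (limma adjusted p = 0.060). Flt3, a receptor of blood progenitors, was too dim to test.

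**Figure D2:**
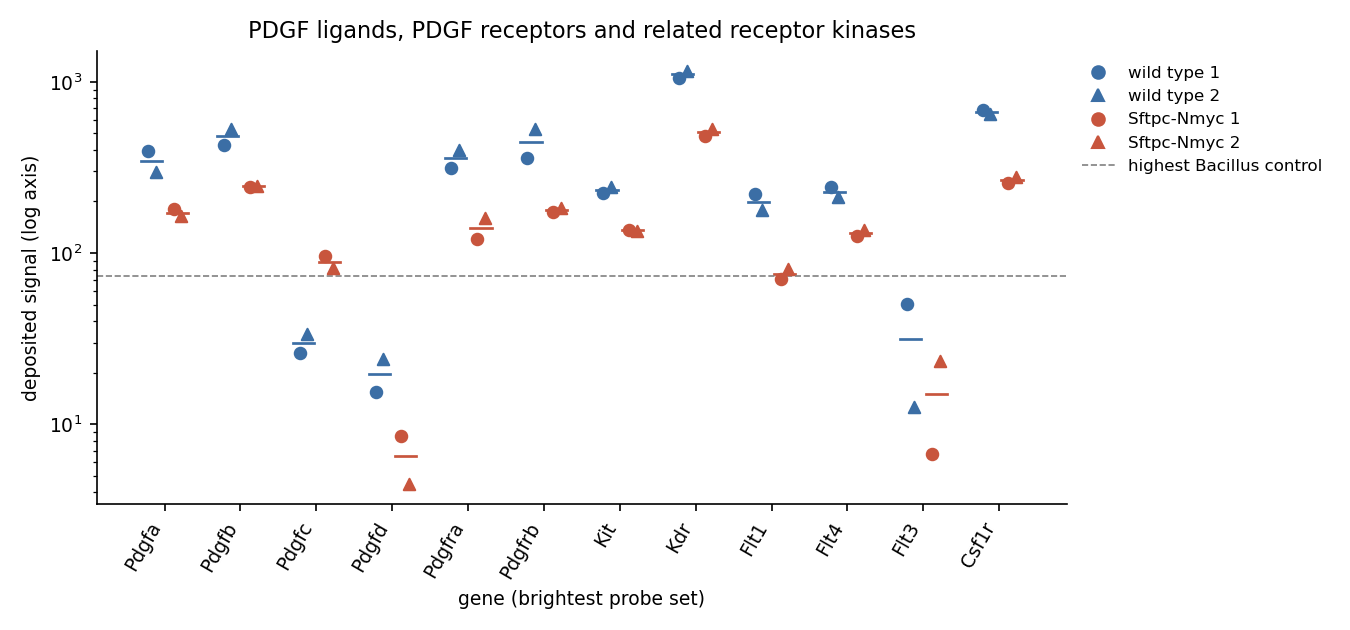
Deposited signal (log axis) of the brightest probe set of each PDGF ligand, PDGF receptor and related receptor kinase gene on the 4 arrays, with group means as bars and the highest Bacillus control (73.4) dashed. Pdgfc is the gene whose transgenic arrays, at 95.9 and 81.7, lie above both wild-type arrays, while Pdgfa, Pdgfb, both receptors, Kit, Kdr, Flt1, Flt4 and Csf1r lie lower.

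Genes that process or bind PDGF were lower in 5 of 9 tested, with none higher and a median of -0.85. Nrp1, a co-receptor for VEGF that also takes part in PDGF signalling, changed by -1.48 ± 0.15, Sparc, a matrix protein that binds PDGF, by -0.85 ± 0.09 and A2m, a plasma protease inhibitor that binds growth factors, by -1.37 ± 0.19 (SE, limma adjusted p = 0.00064, 0.00066 and 0.0018). Furin, a protease that cleaves PDGF precursors, stood at 0.07 ± 0.16 (SE) with signals of 203.5 and 219.5 in wild type and 206.6 and 239.1 in transgenic lungs. Most genes downstream of the receptors did not pass. Of 22 signal transduction genes tested, adaptors and kinases among them, 3 were lower and none higher. That share of 13.6% stood beside 15.7% of all genes, and the median was -0.12. Fyn, a SRC-family kinase, changed by -1.02 ± 0.16 (SE, limma adjusted p = 0.0032). Pik3ca, a catalytic subunit of PI3-kinase, was called at -0.73 ± 0.17 (SE, limma adjusted p = 0.015), a call lost without any array except transgenic replicate 1. Src, the founding kinase of its family, was called at -0.67 ± 0.19 (SE, limma adjusted p = 0.029), a call lost without any array except wild-type replicate 2, with no filter (limma adjusted p = 0.0608), with no variance trend (0.0501) and with the mean of its probe sets (-0.42, limma adjusted p = 0.13). Leaving out wild-type replicate 1, or transgenic replicate 2, left 1 gene of the 22 lower. Pik3r2, a regulatory subunit of PI3-kinase, lay furthest the other way without passing, at 0.35 ± 0.21 (SE).

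Among the lipofibroblast genes, Tcf21 and Plin2 fell and Lpl did not pass. Tcf21, a basic helix-loop-helix factor needed for lung mesenchyme, had signals of 2386.6 and 2940.6 in wild type and 1814.6 and 1226.3 in transgenic lungs. The groups did not overlap, although the transgenic arrays lay slightly further from each other than transgenic replicate 1 lay from the lower wild-type array. Tcf21 changed by -0.86 ± 0.19 (SE, limma adjusted p = 0.011), to 54.9% of wild type, and the call was lost without wild-type replicate 2 (-0.74, limma adjusted p = 0.097). Plin2, the perilipin that coats lipid droplets, went from 1043.9 and 1177.9 to 630.5 and 688.9. The arrays of each group lay close together, and Plin2 changed by -0.79 ± 0.13 (SE, limma adjusted p = 0.0037), to 57.9% of wild type. Lpl, the lipase that frees fatty acids from circulating triglyceride, had 408.5 and 457.7 in wild type and 396.5 and 210.1 in transgenic lungs with probe set 1415904_at. Transgenic replicate 1 was thus close to wild type and transgenic replicate 2 far below it, and Lpl stood at -0.58 ± 0.26 (SE, limma adjusted p = 0.13), with a 95% interval of -1.19 to 0.03. Its second probe set, 1431056_a_at, had 103 and 142.3 in wild type and 95.5 and 75.4 in transgenic lungs, at -0.46 ± 0.23 (SE, limma adjusted p = 0.18 over all probe sets). Without transgenic replicate 1, Lpl was called lower at -1.02 (limma adjusted p = 0.0089), and without transgenic replicate 2 it stood at -0.14 (limma adjusted p = 0.62).

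The other lipofibroblast genes listed were lower in 6 of 8 tested, with none higher and a median of -0.85. Limch1, an actin-binding protein, changed by -1.14 ± 0.11 and Npnt, nephronectin of the alveolar matrix, by -1.01 ± 0.13 (SE, limma adjusted p = 0.00064 and 0.0013). Pth1r, the receptor of parathyroid hormone-related protein, stood at -0.33 ± 0.31 (SE). Without wild-type replicate 2 the count of 6 became 2. Pparg, the fat-cell nuclear receptor that marks lipofibroblasts, and Fgf10, which marks their precursors, were too dim to test. Pparg read 2.2 and 6.6 in wild type and 19.6 and 17.9 in transgenic lungs, opposite in direction to the list's median. Fgf10 read 25.1 and 34.6 in wild type and 32.5 and 17.5 in transgenic lungs. With no filter on dim genes, 1 lipofibroblast gene outside the members, Pparg, was called higher and 4 were called lower. All 4 readings of Pparg lay under the highest Bacillus control. Genes of lipid droplets and lipid uptake were lower in 6 of 13 tested, apart from Plin2 and Lpl, with none higher and a median of -0.48. Lipa, the lysosomal lipase, changed by -1.20 ± 0.16, Vldlr, a lipoprotein receptor, by -1.15 ± 0.17 and Cd36, a fatty acid transporter, by -1.66 ± 0.24 (SE, limma adjusted p = 0.0018, 0.0024 and 0.0024). Vldlr was not called with the mean of its probe sets in place of the brightest (-0.80, limma adjusted p = 0.061). Fabp4, a fatty acid binding protein, stood at 0.41 ± 0.23 (SE). The count of 6 became 3 without wild-type replicate 2. Of Tcf21's class of factors and their partners, 1 of 4 others tested was lower, Tcf4 at -0.59 ± 0.14 (SE, limma adjusted p = 0.019), a call that no fit with 1 array removed retained (limma adjusted p from 0.0516 to 0.105). Tcf3, a partner of such factors, stood at 0.42 ± 0.16 (SE, limma adjusted p = 0.077) and was called higher when array medians were set equal or the mean of its probe sets was used.

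Other cell types also make Plin2 and Lpl, and their markers moved as well. Alveolar type II cells, which make surfactant lipid and mark the distal lung, had all 11 tested markers lower, with a median of -2.86. Summed over their 11 measured markers, the deposited signal was 38267 and 44577 in wild type and 11598 and 9258.2 in transgenic lungs, a ratio of 3.97, which became 6.22 without Sftpc, the brightest of them. Macrophage markers were lower in 7 of 11 tested, with a median of -1.03 and sums over 13 genes of 5393.3 and 6857 against 1765.4 and 1643.2. Lyz2, a lysozyme that type II cells also make, was the brightest of them, and without it the sums were 2345.9 and 2497.4 against 1237.1 and 1112.5, a wild-type to transgenic ratio of 2.06 in place of 3.59. Cardiac muscle, which uses Lpl and lines the pulmonary veins of the mouse, had 7 of 7 tested markers lower, with a median of -2.33. The sums over 9 genes were 3069.3 and 1865.5 against 335.9 and 587.6. Some of these markers entered the test only through their wild-type level. Myh6 read 229.5 and 129.8 in wild type and 19.6 and 29.7 in transgenic lungs, and Ryr2 80.7 and 47.6 against 24.1 and 21. With the filter at the 50th percentile the count of 7 became 3. No marker of these 3 lists was at 0 on every array. The part of these cells in the Plin2 and Lpl values was not tested. Fat cell markers were near the bottom of the scale, with Adipoq, Lep and Cidec at 7.8 or less on every array.

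Of the matrix genes, Postn fell most. Postn encodes periostin, a collagen-binding protein of fibroblasts and myofibroblasts, and had signals of 1359.9 and 1127.4 in wild type and 339.5 and 310.7 in transgenic lungs. The lower wild-type array was more than 3 times the higher transgenic array. Postn changed by -1.94 ± 0.15 (SE, limma adjusted p = 0.00029), to 26.1% of wild type, with a 95% interval of -2.27 to -1.60, and 0.772% of all genes tested had a larger fall. Its interval lay wholly below those of Pdgfa, Pdgfb, Tcf21 and Plin2 and overlapped those of Pdgfra, Pdgfrb and Dcn. The call held whichever array was left out, at -2.08 to -1.79. Dcn encodes decorin, a small leucine-rich proteoglycan that binds collagen, and had 401.2 and 306.9 in wild type and 119.9 and 210.8 in transgenic lungs. The groups did not overlap but each was spread, and Dcn stood at -1.11 ± 0.26 (SE, limma adjusted p = 0.016). Leaving out wild-type replicate 1 gave -0.92 (limma adjusted p = 0.12), wild-type replicate 2 -1.31 (0.055) and transgenic replicate 1 -0.73 (0.053), so the call was lost in each of these fits. Lum encodes lumican, a proteoglycan of the same family whose gene follows Dcn on the chromosome. Its signals were 61.9 and 43.5 in wild type and 30.2 and 47.4 in transgenic lungs, all under the highest Bacillus control, with transgenic replicate 2 above wild-type replicate 2. Lum stood at -0.31 ± 0.31 (SE, limma adjusted p = 0.47), with a 95% interval of -1.03 to 0.40 that reaches the values of Pdgfa and Pdgfb. Kera and Epyc, the proteoglycan genes that follow Lum, were too dim to test.

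**Figure D3:**
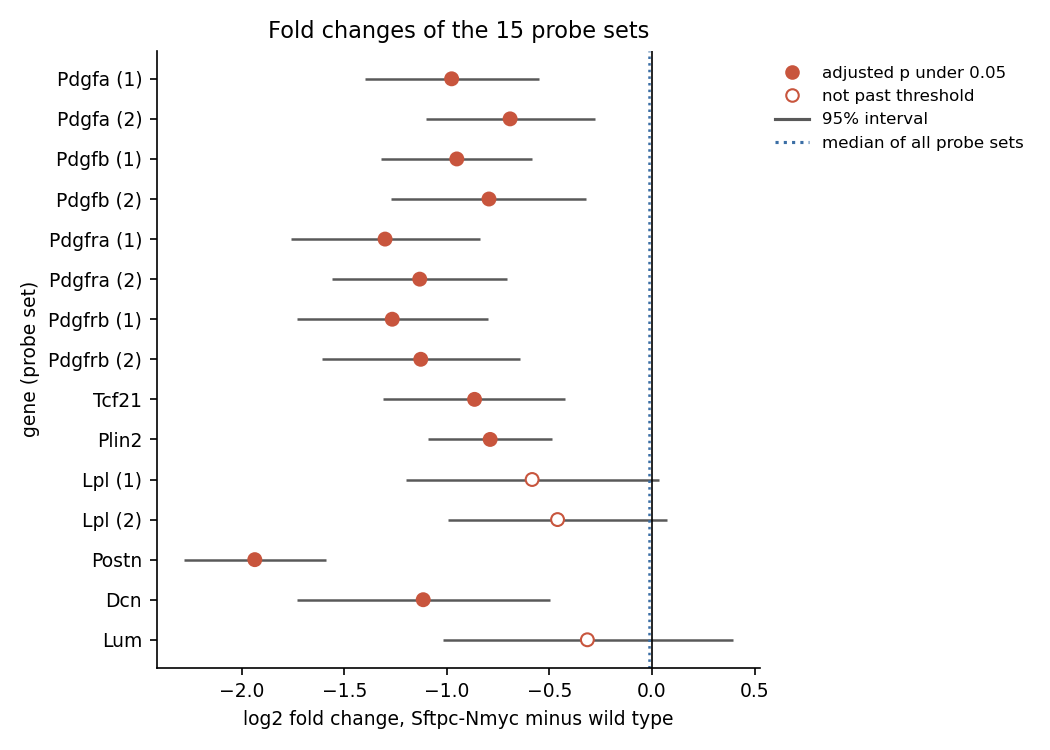
Log2 fold change, Sftpc-Nmyc minus wild type, of the 15 probe sets (horizontal axis), with 95% intervals from the limma fit over all probe sets, filled where the adjusted p is under 0.05, and a dotted line at the median of all probe sets. The 12 filled points run from -0.69 for the second Pdgfa probe set to -1.94 for Postn, and the intervals of both Lpl probe sets and of Lum cross 0.

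Apart from Dcn and Lum, 3 of 5 tested small leucine-rich proteoglycans were lower and none higher, with a median of -0.66. Bgn, biglycan, went from 2516.9 and 2754.5 to 1519.8 and 1577, at -0.81 ± 0.11 (SE, limma adjusted p = 0.0016). Ogn, osteoglycin, stood at -0.64 ± 0.14 (SE, limma adjusted p = 0.013) and was not called without either wild-type array or without transgenic replicate 2 (limma adjusted p up to 0.092). Fmod, fibromodulin, stood at 0.04 ± 0.22 (SE). The count of 3 became 1 without wild-type replicate 1. Of the other matrix fibroblast genes, 17 of 21 tested were lower and none higher, with a median of -0.88, and 14 to 18 were lower when an array was left out. Col6a3, a chain of collagen VI, changed by -1.34 ± 0.12 and Mfap4, a protein of elastic fibres, by -0.94 ± 0.09 (SE, limma adjusted p = 0.00043 and 0.00049). Meox2, a mesenchymal homeobox factor, stood at -0.29 ± 0.23 (SE). The interval of Postn lay wholly below the median of these genes, whereas that of Dcn included it.

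The cells known to carry the receptors were read by further lists. Besides Pdgfra, 6 of 14 tested genes of alveolar myofibroblasts were lower and none higher, with a median of -0.68. Eln, elastin, changed by -1.03 ± 0.12 and Hhip, a hedgehog-binding protein, by -0.84 ± 0.15 (SE, limma adjusted p = 0.0010 and 0.0054). Lgr6, a receptor of the R-spondins, stood at 0.09 ± 0.24 (SE). The count of 6 became 2 without either wild-type array and 3 without transgenic replicate 1. Besides Pdgfrb, 7 of 11 tested pericyte genes were lower and none higher, with a median of -0.80. Gucy1a1 and Gucy1b1, the subunits of the nitric oxide receptor, changed by -1.24 ± 0.14 and -1.56 ± 0.19, and Higd1b, a pericyte marker, by -1.61 ± 0.20 (SE, limma adjusted p = 0.00089, 0.0012 and 0.0013). Abcc9, a subunit of a potassium channel of pericytes, stood at -0.35 ± 0.29 (SE). Sums of deposited signal over these 13 pericyte genes measured were 3489.9 and 3554 in wild type and 1831 and 1784 in transgenic lungs, and no gene of the list was at 0 on every array.

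The cells known to make the ligands differed in direction. Of 16 endothelial genes all 16 were lower, with a median of -1.29, whichever array was left out. Esam, Cdh5 and Tie1, proteins of endothelial junctions and vessels, changed by -1.82 ± 0.13, -1.59 ± 0.13 and -1.77 ± 0.15 (SE, limma adjusted p = 0.00022, 0.00037 and 0.00041), and Egfl7, a protein that endothelium secretes, changed least, by -0.85 ± 0.14 (SE). Their summed signal was 11546 and 12706 in wild type and 4762.3 and 4766.7 in transgenic lungs. Platelet genes were lower in 2 of 6 tested, Pf4 and Ppbp, chemokines of platelet granules, at -1.04 ± 0.20 and -1.44 ± 0.29 (SE, limma adjusted p = 0.0065 and 0.0088), and in none of 6 without wild-type replicate 1. Ppbp read 118.3 and 74.5 in wild type and 32.3 and 27.8 in transgenic lungs, the latter under the highest Bacillus control. It entered the test only through its wild-type level. Summed over 7 platelet genes, the signal was 1012.1 and 817.3 in wild type and 565.7 and 494.4 in transgenic lungs. Gp1bb, a platelet adhesion receptor subunit, stood at -0.06 ± 0.21 (SE). General epithelial genes, by contrast, were higher in 7 of 13 and lower in none, with a median of 0.60 and sums of 6021.8 and 6560.5 against 9372.9 and 9279. Epcam, an epithelial adhesion molecule, rose from 476.7 and 508.6 to 1451.6 and 1381.7, while Pdgfa fell in the same lungs. The count of 7 became 4 without either wild-type array. Of type II cell genes, Scd1, a desaturase, changed by -5.65 ± 0.22 and Muc1, a mucin of the cell surface, by -0.62 ± 0.13 (SE, limma adjusted p = 1.3e-05 and 0.010), the latter lost without either wild-type array (limma adjusted p up to 0.070). The part of any of these cell types in the values of Pdgfa and Pdgfb was not tested.

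**Figure D4:**
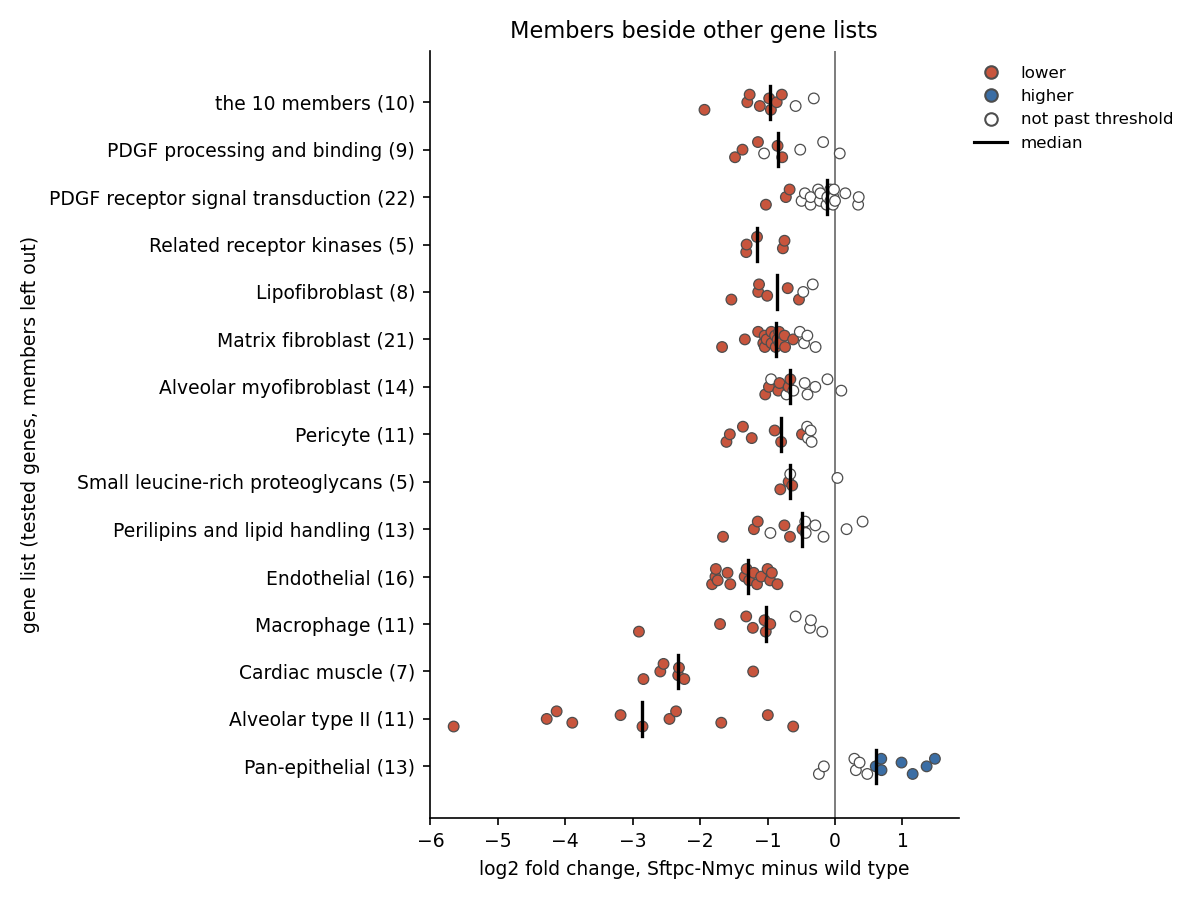
Log2 fold change, Sftpc-Nmyc minus wild type, of each tested gene (1 point per gene) of the 10 members and of 14 other gene lists with the members left out, coloured by call and with the median as a bar. The median of the members (-0.96) lies between those of the matrix fibroblast genes (-0.88) and the macrophage genes (-1.03). Those of the related receptor kinases (-1.16) and the endothelial genes (-1.29) lie lower, and the signal transduction genes lie around a median of -0.12.

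Markers of other tissues were read to see what else the dissected lungs held. Mesothelial markers, of the cells that cover the lung, were lower in 2 of 2 tested, Upk3b at -1.81 ± 0.19 and Msln at -2.14 ± 0.32 (SE, limma adjusted p = 0.00071 and 0.0025), and their sums over 3 genes were 1067.9 and 1502.3 against 399.6 and 262.5. Of 7 cartilage markers only Acan and Col9a1 could be tested and neither passed, with sums of 187.3 and 221.7 against 179.2 and 213.1. The part of mesothelial cells in the values of Dcn and Postn was not tested.

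Genes with values most like 3 of the members were picked by the distance between their log2 values over the 4 arrays after each gene's mean was removed. For Pdgfa they were Aldoc, an aldolase, and Plekho2, at distances of 0.08 and 0.10. For Pdgfra they were Gpm6a, a membrane glycoprotein, and Ifi35, an interferon-induced gene, at 0.08 and 0.11. For Postn they were Ccn2, a matrix-associated growth factor of connective tissue, and Scnn1g, a sodium channel subunit of epithelium, at 0.13 each. With 4 arrays such likeness is common: 54 genes lay within 0.25 of Pdgfa, 27 of Pdgfra and 8 of Postn.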

How the data were processed

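Per the labels' protocols, RNA isolation used RNeasy reagents and biotin labelling followed Affymetrix. The deposited intensities are on a linear scale, 1 value per probe set and array, and their medians ran from 65.45 to 70.8 over the 4 arrays. How the scanner output was summarised, background-corrected, scaled or called present is not given in the sources used here. As a guide to background, the highest of 27 Bacillus control probe sets read 73.4, with no record of whether they were spiked in. The number of arrays limits the precision.

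Values under 1 were set to 1, 5 was added as an offset, and log2 values were quantile normalized with control probe sets left out. On this log2(value + 5) scale the fold change of a dim gene is understated. Of 22690 probe sets, 20380 had 1 symbol in the platform annotation, 691 several, 1555 none and 64 were controls. By gene identifier 20351 matched a RefSeq table (GRCm38.p6). Each gene was read by its brightest probe set, judged by the mean of the 4 arrays. Genes in the lowest 30% by mean were left out, which left 8675. A second fit took all probe sets with 1 symbol, with the same filter. Group was the only term of the models, fitted by lmFit and eBayes with trend (limma 3.58.1, R 4.3.3), with Benjamini-Hochberg adjustment over everything tested. A single gene's exact permutation test on 2 against 2 arrays cannot give a two-sided p below 0.333. The code was tested on simulated data.

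The 10 genes and the 21 gene lists were chosen with earlier results of these data known. Some lists share genes, as with Sparc, Kdr, Flt1 and Csf1r, so their counts are not independent of one another. Genes were named by rule: the members, the PDGF family and related receptor kinases, and of each other list the 3 with the largest moderated statistic and the 1 furthest against the list's median, and for Pdgfa, Pdgfra and Postn the 2 genes of nearest pattern. Genes named outside the rule are Mycn, Sftpc, Pparg, Fgf10, Kera, Epyc, Adipoq, Lep and Cidec. Alternatives covered the offset, filter, normalization, variance trend, replicate block, probe set choice and each array left out.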

Additional observations from a re-analysis of the deposited data

How the results depend on the processing

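No value of the 10 genes or 15 probe sets changed direction under any of the alternatives tried. Called lower were 6 to 8 of the 10 genes and 8 to 12 of the 15 probe sets when an array was left out, and none was called higher. Over all genes, leaving out an array gave 669 to 1037 lower and 727 to 880 higher, beside 1360 and 1276. With the replicate number as a block, 8 members and 12 member probe sets were lower, with 1134 genes lower and 1084 higher in all. The deviations of same-numbered arrays from their group means correlated at -0.04 over all genes tested. This single value cannot show whether same-numbered arrays were handled together. With no filter on dim genes Dcn was not called (limma adjusted p = 0.0513), which left 7 genes lower. By probe set 8 were lower with no filter, where those of Tcf21 and Dcn and the dimmer ones of Pdgfa and Pdgfb were not called, and 10 with no variance trend, where those of Tcf21 and Dcn were not. With array medians set equal 1153 genes were lower and 1543 higher. Of 63 named genes with a call, 47 kept it under every alternative run.

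Uncalled genes near 0 changed sign. Acan stood at -0.0924 with the deposited scaling and -0.0213 with array medians set equal, and with an array left out ran from -0.0543 to 0.0572. With an array left out, Lgr6 ran from -0.15 to 0.33, Fmod from -0.21 to 0.29, Cd68 from -0.42 to 0.0363, Col9a1 from -0.13 to 0.43, Pth1r from -0.75 to 0.0855 and Furin from -0.0336 to 0.17. None of these passed in any of them, and the cause was not tested. Of 588 counts of list genes under the alternatives, 25 moved by more than 1.5 times or went to or from 0. Readings near the Bacillus controls, as for Lum, Pdgfc and Pdgfd, are limited by signal over background.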

Other observations

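The transgenic arrays differed from each other in opposite directions for some of the 10 genes, which were picked here after their values were seen. Transgenic replicate 2 read lower than transgenic replicate 1 for Tcf21 (1226.3 and 1814.6) and Lpl (210.1 and 396.5). It read higher for Dcn (210.8 and 119.9) and Lum (47.4 and 30.2). Of 11 tested lipofibroblast genes, 7 were lower on transgenic replicate 2 than on transgenic replicate 1, and 1 was lower on wild-type replicate 2 than on wild-type replicate 1. Of 24 tested matrix fibroblast genes, 9 were lower on replicate 2 in each group. Both counts include the members, with Tcf21 and Lpl on the first list and Dcn and Lum on the second. They are therefore no separate support for the differences picked. Over all 8675 genes tested, 4167 were lower on transgenic replicate 2 and 4382 on wild-type replicate 2. Each array is 1 biological replicate, and no test of these differences was possible.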
